A study of Mus musculus with 6 samples.

Results

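Rag1, Rag2 and Dntt encode the proteins that start antigen receptor gene rearrangement in lymphocytes and diversify its joints, and they are 3 of the 19937 genes with a single symbol on the arrays used here. They were taken by symbol from the array platform's gene table, and each was read by 1 probe set (10485372 for Rag1, 10474105 for Rag2 and 10463123 for Dntt). RAG1 and RAG2 form the recombinase that recognises recombination signal sequences beside the V, D and J segments and cuts the DNA there. Terminal deoxynucleotidyl transferase, the product of Dntt, then adds nucleotides without a template at the coding ends before they are joined. All 3 genes are characteristic of early lymphocytes, and FOXO1 is known as an activator of the Rag genes in developing B cells. Cells transformed by the v-Abl kinase are known to keep Rag transcription low while that kinase is active.

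Total RNA was measured in 6 samples of mouse pro-B cells (strain C57/BL6) transformed with v-Abl, all of genotype Foxo1f/f; ERCre, in which both Foxo1 alleles can be removed by a Cre recombinase that tamoxifen activates. The 3 tamoxifen samples received 1 µM tamoxifen for 2 days and the 3 untreated samples received none. The comparison addresses which transcripts differ after Foxo1 deletion. All samples carried ERCre, and no tamoxifen-treated sample analysed here had a Foxo1 gene without loxP sites, so an effect of tamoxifen or of active Cre cannot be told apart from that of the deletion. The labels do not say how many cell lines or cultures the samples came from, so the p-values rest on the spread among these 6 samples, which could be technical only. The number of arrays limits the precision.

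The arrays were on a similar scale, with medians of 100.9 to 109.1 and Spearman correlations of 0.981 to 0.991 between any pair. Of the 11 measured pro-B cell markers, 11 lay above the 95th percentile of the receptor genes described below on every array. Their summed intensity was 23229 to 24004 in tamoxifen samples and 19593 to 22924 in untreated samples. Over the same limit on every array were 0 of 7 T cell, 0 of 7 myeloid, 0 of 2 erythroid and 0 of 5 plasma and NK cell markers. Some of these were over it on part of the arrays. The T cell marker Cd3e fell short only in untreated sample 2 (86.5, limit 95.1). The erythroid marker Gata1 fell short only in untreated sample 3 (106.5, limit 109.8). Foxo1, the targeted gene, had intensities of 116, 151 and 134 in tamoxifen samples 1, 2 and 3, against 806, 624 and 512 in untreated samples 1, 2 and 3. The groups did not overlap, and Foxo1 fell by 2.13 ± 0.15 (SE) on the log2 scale, with a limma adjusted p = 0.0178. The call held without untreated sample 1 and was lost without any other single array (limma adjusted p 0.0862 to 0.157). No source used here says whether this probe set lies within the loxP-flanked sequence.

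To place the 3 genes against each array's background, their intensities were set beside those of 1207 odorant, vomeronasal and trace amine receptor genes, which B lineage cells are not known to use. On the 6 arrays the median of these receptors was 22.0 to 24.8 and their 95th percentile 88.7 to 109.8. Some of them may still give signal, so they describe the level at which most unused genes were read and are not a limit of detection.

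Rag1, the subunit that carries the catalytic site of the recombinase, stayed below that 95th percentile on all 6 arrays. Its intensity was 56.3, 52.2 and 49.1 in tamoxifen samples 1, 2 and 3, against 93.4, 58.4 and 54.2 in untreated samples 1, 2 and 3. These values stood at percentiles 85.7, 81.4 and 78.1 of the receptor genes in the tamoxifen samples, against 94.4, 85.2 and 79.7 in the untreated samples. Untreated sample 1 was the highest, and the other 2 untreated values lay within or next to the range of the tamoxifen samples, so the groups overlapped. Over all probe sets of an array, Rag1 reached at most percentile 46.7, in untreated sample 1.

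Rag2, the partner that RAG1 needs for cutting and that binds modified histone H3, also stayed within the range of the receptor genes. Its intensity was 32.6, 36.6 and 26.3 in tamoxifen samples 1, 2 and 3, against 69.6, 29.4 and 40.1 in untreated samples 1, 2 and 3. Tamoxifen sample 3 lay at 1.08 times the receptor median and untreated sample 1 at 2.99 times. Untreated sample 1 was again the highest, and untreated sample 2 was below tamoxifen samples 1 and 2, so the groups overlapped here as well. Among receptor genes Rag2 stood at percentiles 67.1, 67.1 and 53.5 in the tamoxifen samples, against 89.8, 60.6 and 68.4 in the untreated samples.

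Dntt was read above the 95th percentile of the receptor genes on all 6 arrays. Its intensity was 161, 144 and 128 in tamoxifen samples 1, 2 and 3, against 575, 297 and 281 in untreated samples 1, 2 and 3. Each tamoxifen value was below each untreated value, and untreated sample 1 stood well above the other 2 untreated samples. Relative to the receptor median of its own array, Dntt was 7.29, 6.03 and 5.28 times as bright in the tamoxifen samples, against 24.8, 12.9 and 11.4 times in the untreated samples. It therefore kept a signal over background after 2 days of tamoxifen, at percentiles 55.8 to 62.9 of all probe sets, against 75.2 to 85.1 in untreated samples.

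**Figure D1:**
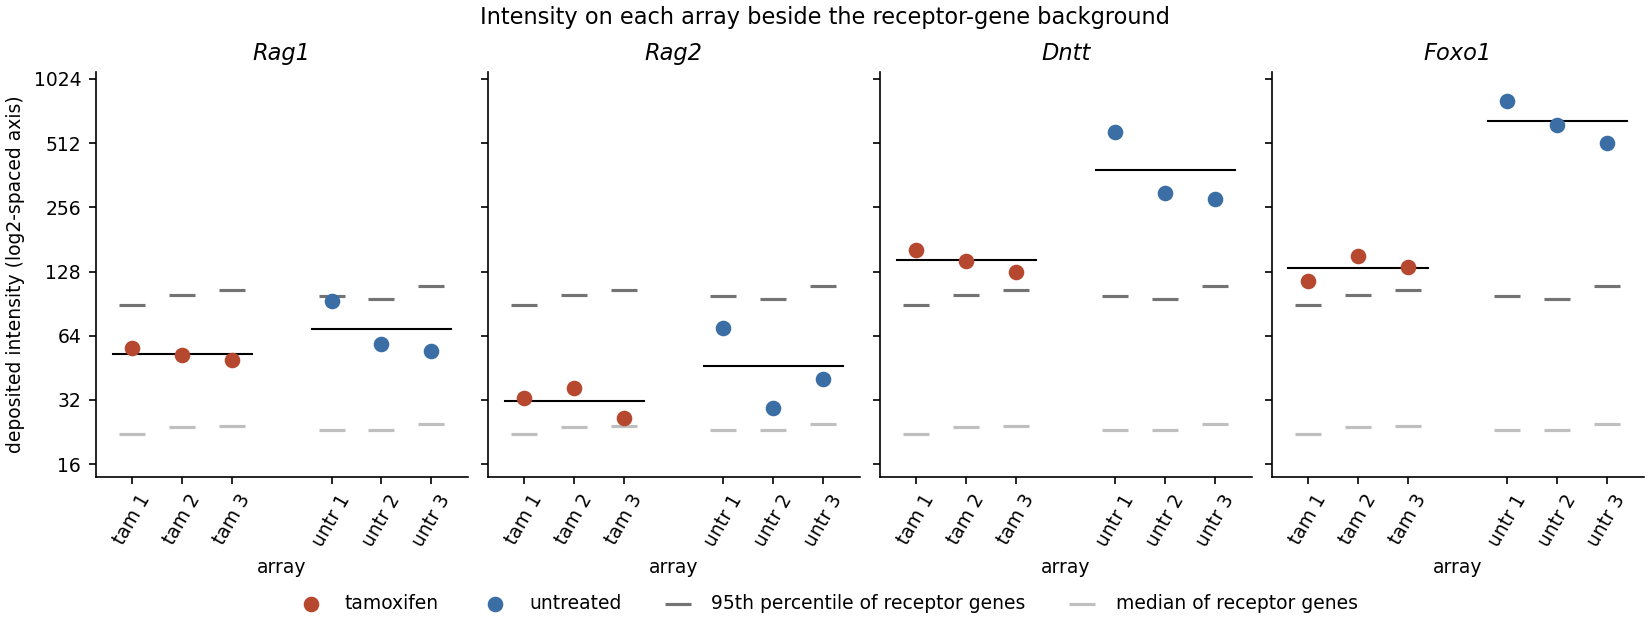
Deposited intensity of Rag1, Rag2, Dntt and Foxo1 on each array, on a log2-spaced axis, with tamoxifen samples left of untreated samples, black lines at group means and grey bars at the median and 95th percentile of 1207 receptor genes on the same array. Rag1 and Rag2 lie between the grey bars on every array, whereas Dntt and Foxo1 lie above both, and each tamoxifen value of Dntt is below each untreated value.

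**Figure D2:**
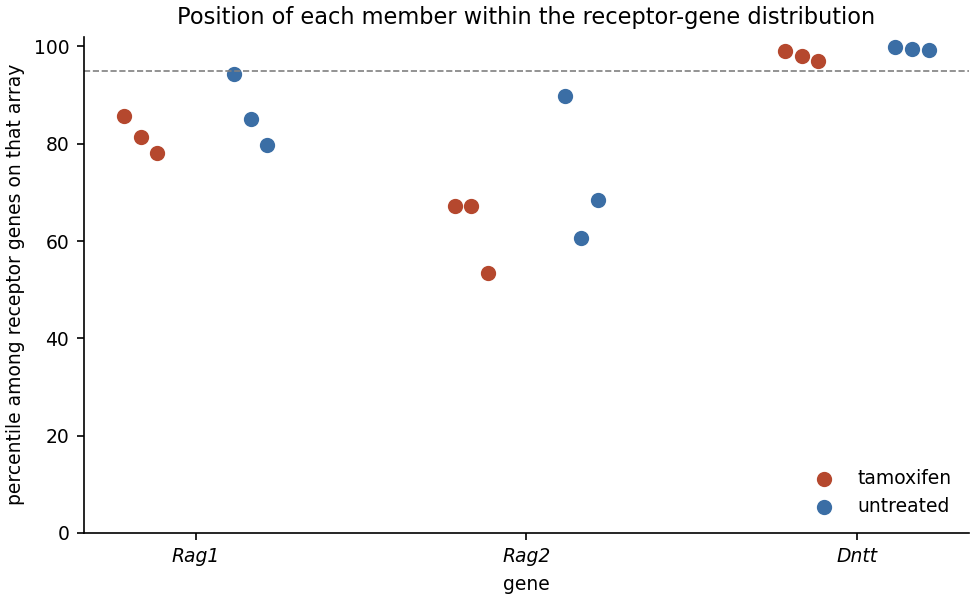
Percentile of Rag1, Rag2 and Dntt among the receptor genes of the same array, with 3 tamoxifen points left of 3 untreated points for each gene and a dashed line at percentile 95. Rag1 spans 78.1 to 94.4 and Rag2 53.5 to 89.8, below the line, and Dntt lies above it on every array.

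Tamoxifen and untreated samples were compared with limma on log2(intensity + 16), a scale that understates the change of dim genes, fitted over all 34760 probe sets. None of the 3 genes passed a limma adjusted p of 0.05 (0 of 3), a level that 20 probe sets or 0.0575% of the array reached. At an unadjusted p under 0.05 there was 1 of the 3, Dntt, where all probe sets had 5.11%, and 2.14% with tamoxifen lower. Rag1 averaged 52.5 ± 3.61 in tamoxifen samples and 68.7 ± 21.5 in untreated samples (SD, n = 3 each). Its log2 fold change was -0.26 ± 0.19 (SE), with a 95% interval of -0.71 to 0.19 and a limma adjusted p = 0.999. Rag2 averaged 31.8 ± 5.20 in tamoxifen samples and 46.3 ± 20.8 in untreated samples (SD, n = 3 each), a log2 fold change of -0.32 ± 0.24 (SE) with an interval of -0.89 to 0.25 and a limma adjusted p = 0.999. For both recombinase subunits the difference was smaller than the SD of the untreated group, and a change in either direction within these intervals is not excluded.

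The difference in Dntt was larger than the spread of either group but did not pass the test. It averaged 144 ± 16.4 in tamoxifen samples and 385 ± 165 in untreated samples (SD, n = 3 each), a ratio of 0.375. Its log2 fold change was -1.26 ± 0.25 (SE), with an interval of -1.87 to -0.65, an unadjusted p = 0.00206 and a limma adjusted p = 0.365. By size, 7 of the 34760 probe sets (0.0201%) had a log2 fold change this low or lower, Dntt included, whereas by p-value Dntt was number 192. Groups that did not overlap, with tamoxifen lower, were found for 4.87% of all probe sets, and among the 3 genes for Dntt alone. Since these are bulk RNA samples, fewer cells with the transcript and less transcript per cell cannot be told apart.

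Untreated sample 1 bears on each of these values. On the log2 scale it exceeded the mean of untreated samples 2 and 3 by 0.65 for Rag1, 0.81 for Rag2 and 0.91 for Dntt. An excess at least that large was found in 0.567%, 0.199% and 0.106% of all probe sets for Rag1, Rag2 and Dntt in that order, and the array was the highest of the 6 for 22.7% of probe sets. Without it the log2 fold change was -0.05 for Rag1 and -0.05 for Rag2, and that of Dntt was -0.95 ± 0.11 (SE) with a limma adjusted p = 0.144. The small negative values of the Rag genes thus depended largely on this 1 sample, while Dntt was also lower in tamoxifen samples against untreated samples 2 and 3 alone. Foxo1 was likewise highest there, with an excess of 0.45 that 2.36% of probe sets reached.

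**Figure D3:**
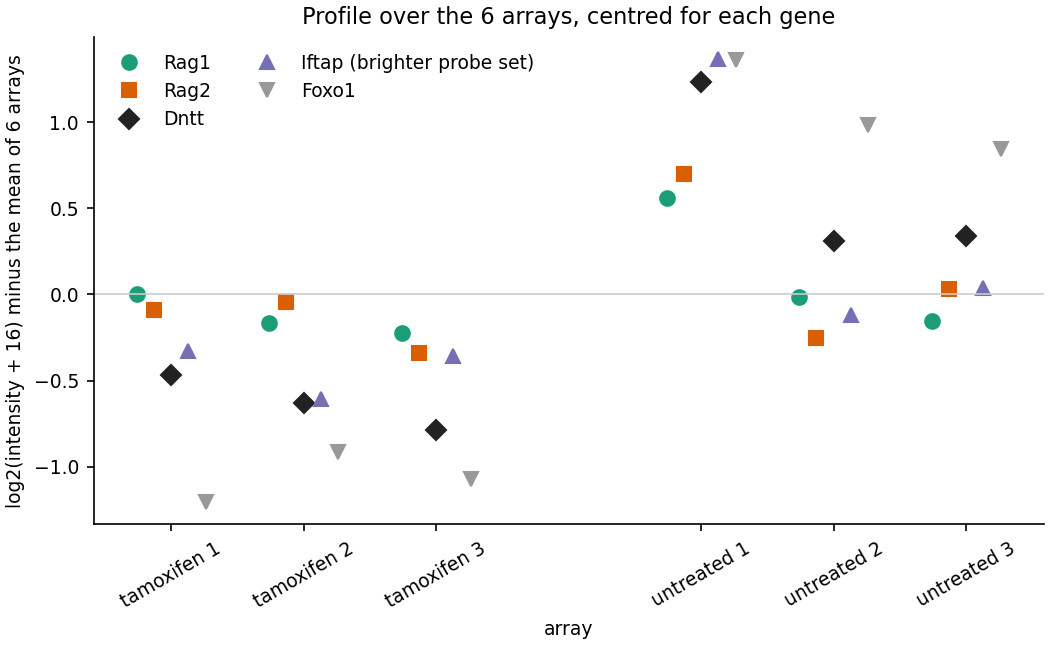
Normalised log2(intensity + 16) of each gene minus its own mean over the 6 arrays, with tamoxifen samples left of untreated samples. Rag1, Rag2, Dntt and the brighter Iftap probe set have their highest value in untreated sample 1, and for Rag1 the other 2 untreated samples lie among the tamoxifen samples, while for Rag2 untreated sample 2 does and untreated sample 3 lies just above them.

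Whether Dntt differed more than the Rag genes was tested on the difference of log2 values within each array, by an exact two-sided permutation test over the 6 samples. The log2 difference of Dntt minus Rag1 lay between 1.14 and 1.25 in tamoxifen samples and between 2.04 and 2.38 in untreated samples. The Dntt fold change was lower than that of Rag1 (difference -0.996 on the log2 scale) and than that of Rag2 (difference -0.94). In both cases the groups did not overlap, and the exact permutation p = 0.1 was the smallest that 3 against 3 samples can give (0.15 adjusted over 3 pairs). Rag1 and Rag2 differed from each other by 0.06 in log2 fold change, with an exact permutation p = 0.8. The Rag genes lay below the 95th percentile of the receptor genes on every array, so these differences are given for this scale only. After subtraction of the receptor median, the ratio of means, tamoxifen over untreated, was 0.335 for Dntt, 0.648 for Rag1 and 0.372 for Rag2. The group SDs carried through to these ratios give errors of 0.161 for Dntt, 0.334 for Rag1 and 0.425 for Rag2. The error of Rag2 exceeds its ratio, so on that scale Dntt and Rag2 cannot be ranked. No larger change in Dntt than in Rag2 is shown. The Rag2 ratio rests largely on untreated sample 1, where 46.3 was left over, against 6.25 and 15.3 in untreated samples 2 and 3.

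As Rag1 and Rag2 lie close to background, their values were also computed after subtracting the receptor median of each array, an alternative chosen after seeing the data. Left over for Rag1 were 29.1 ± 4.73 in tamoxifen samples and 45.0 ± 22.0 in untreated samples (SD, n = 3 each). For Rag2 the remainder was 8.41 ± 5.61 in tamoxifen samples and 22.6 ± 21.0 in untreated samples (SD, n = 3 each), so the SD was of the size of the mean in the untreated group. Before subtraction the ratio of means was 0.375 for Dntt, 0.765 for Rag1 and 0.686 for Rag2. The ratio of Rag2 moved most, so for this gene the ratio depends on how background is treated.

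The proximal promoters are shown because the deleted protein is a forkhead factor. They are the 250 bases before the RefSeq start of each gene in build GRCm38.p6. Capitals mark matches, on either strand, to the forkhead letters GTAAACA or ATAAACA and to the E-box CAGGTG. These motifs were chosen with the sequences in view, and no 2 matches overlap.
Rag1 (chr2:101649533-101649782, minus strand): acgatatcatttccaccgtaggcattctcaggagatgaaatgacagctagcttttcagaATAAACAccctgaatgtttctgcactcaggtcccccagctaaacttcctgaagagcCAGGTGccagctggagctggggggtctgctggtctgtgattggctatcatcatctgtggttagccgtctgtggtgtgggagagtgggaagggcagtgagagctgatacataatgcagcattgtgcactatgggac
Rag2 (chr2:101624462-101624711, plus strand): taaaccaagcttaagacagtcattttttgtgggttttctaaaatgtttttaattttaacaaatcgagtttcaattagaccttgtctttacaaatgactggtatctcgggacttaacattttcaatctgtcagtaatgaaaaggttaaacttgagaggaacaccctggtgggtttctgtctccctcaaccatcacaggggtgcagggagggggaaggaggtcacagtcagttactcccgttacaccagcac
Dntt (chr19:41029025-41029274, plus strand): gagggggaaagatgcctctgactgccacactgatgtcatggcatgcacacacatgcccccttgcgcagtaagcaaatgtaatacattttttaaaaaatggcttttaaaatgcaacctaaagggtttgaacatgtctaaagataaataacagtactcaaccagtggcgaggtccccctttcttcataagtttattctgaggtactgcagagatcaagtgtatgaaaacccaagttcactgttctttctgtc

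Rag1 held 1 match to ATAAACA, from 191 to 185 bases before the start, and 1 to CAGGTG, from 135 to 130 bases before it. Rag2 and Dntt held 0 matches. Of 32851 promoters of the same length, 4.16% held ATAAACA, 3.17% held GTAAACA and 17.2% held CAGGTG. A match is a run of letters and no sign of binding, and its absence says only that the letters are not in this window. FOXO1 is known to act on the Rag locus through an enhancer away from these promoters, which was not examined.

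The Rag genes lie side by side on chromosome 2, in opposite orientation, and in the RefSeq table the gene Iftap (also called NWC) overlaps Rag2. The brighter of 2 Iftap probe sets had intensities of 19.8, 14.5 and 20.0 in tamoxifen samples 1, 2 and 3, against 101, 26.8 and 32.1 in untreated samples 1, 2 and 3. As for the Rag genes, untreated sample 1 was the highest. All 3 tamoxifen values were below the receptor median of their own array (22.0, 23.9 and 24.2), so this probe set was not above background there, and the separation of the groups and the fold change carry little weight. Its log2 fold change was -0.86 ± 0.38 (SE), with a limma adjusted p = 0.997, and the other Iftap probe set gave 0.03 ± 0.07 (SE). Overlapping genes may be read by each other's probes, so the Iftap and Rag2 values are uncertain in that respect. The next measured genes were Traf6, a ubiquitin ligase of cytokine and Toll-like receptor signalling (-0.07), Prr5l, a partner of mTOR complex 2 (0.01), and Lrrc4c, a synaptic adhesion protein (0.23), with limma adjusted p = 0.999 for each. Lrrc4c lies 3993040 bases from the Rag genes, against 28888 for Traf6 and 63578 for Prr5l, so it is not a close neighbour. Around Dntt on chromosome 19 the neighbours were Blnk, which links the pre-B cell receptor to calcium signalling (0.03), the zinc finger gene Zfp518a (0.40), Opalin, a myelin protein (0.02), and Tll2, a secreted protease (-0.01). None of these 4 passed the test, and Blnk, the nearest measured gene before Dntt, had 1309 ± 88.4 in tamoxifen samples and 1286 ± 249 in untreated samples (SD, n = 3 each).

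Among 16 measured genes known or proposed to regulate Rag transcription, 2 rose and 1 fell at a limma adjusted p under 0.05. At that level 0.0374% of all probe sets rose and 0.0201% fell. The list had a median log2 fold change of -0.04 against -0.01 for all genes. The gene that fell was Foxo1. Bcl11a, a zinc finger factor of early lymphoid cells, rose by 0.84 ± 0.08 (SE) with a limma adjusted p = 0.0392, and Ets1, a lymphoid Ets factor, by 0.72 ± 0.07 (SE) with a limma adjusted p = 0.0385. Both calls were lost without any single array, with limma adjusted p of 0.105 to 0.262 for Bcl11a and 0.130 to 0.270 for Ets1, while the log2 fold changes stayed between 0.68 and 0.90. At an unadjusted p under 0.05, 3 members were higher and 4 lower, 43.8% of the list, where all probe sets had 5.11%. Besides the genes already named, these were Pax5 (0.38), which was higher, and Ebf1 (-0.51), Lef1 (-0.59) and Runx1 (-0.34), which were lower. The repressor Gfi1b (-0.11), the stress protein Gadd45a (0.06) and the factor Myb (-0.15) were not among them, and are named here after their values were seen. The list was drawn up with earlier results of these data known, so its calls are not independent evidence.

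The genes that act beside and after the RAG recombinase had log2 fold changes between -0.30 and 0.24. Of 14 listed cofactors of cleavage and end joining genes, 13 were measured and 0 passed limma after adjustment over the whole array and 0 reached an unadjusted p of 0.05. With 0.0575% and 5.11% of all probe sets past these levels, counts of 0 among 13 genes are near the background and say little about this list. Their median log2 fold change was -0.02, with 6 positive and 7 negative, and 11 of the 13 lay above the 95th percentile of the receptor genes on every array. The highest were Xrcc4 (0.24 ± 0.14, SE) and Lig4 (0.16 ± 0.07, SE), which together seal the joint. The lowest were Xrcc6, which encodes the end-binding protein Ku70 (-0.30 ± 0.14, SE), and the damage-signalling kinase Atm (-0.14 ± 0.16, SE).

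**Figure D4:**
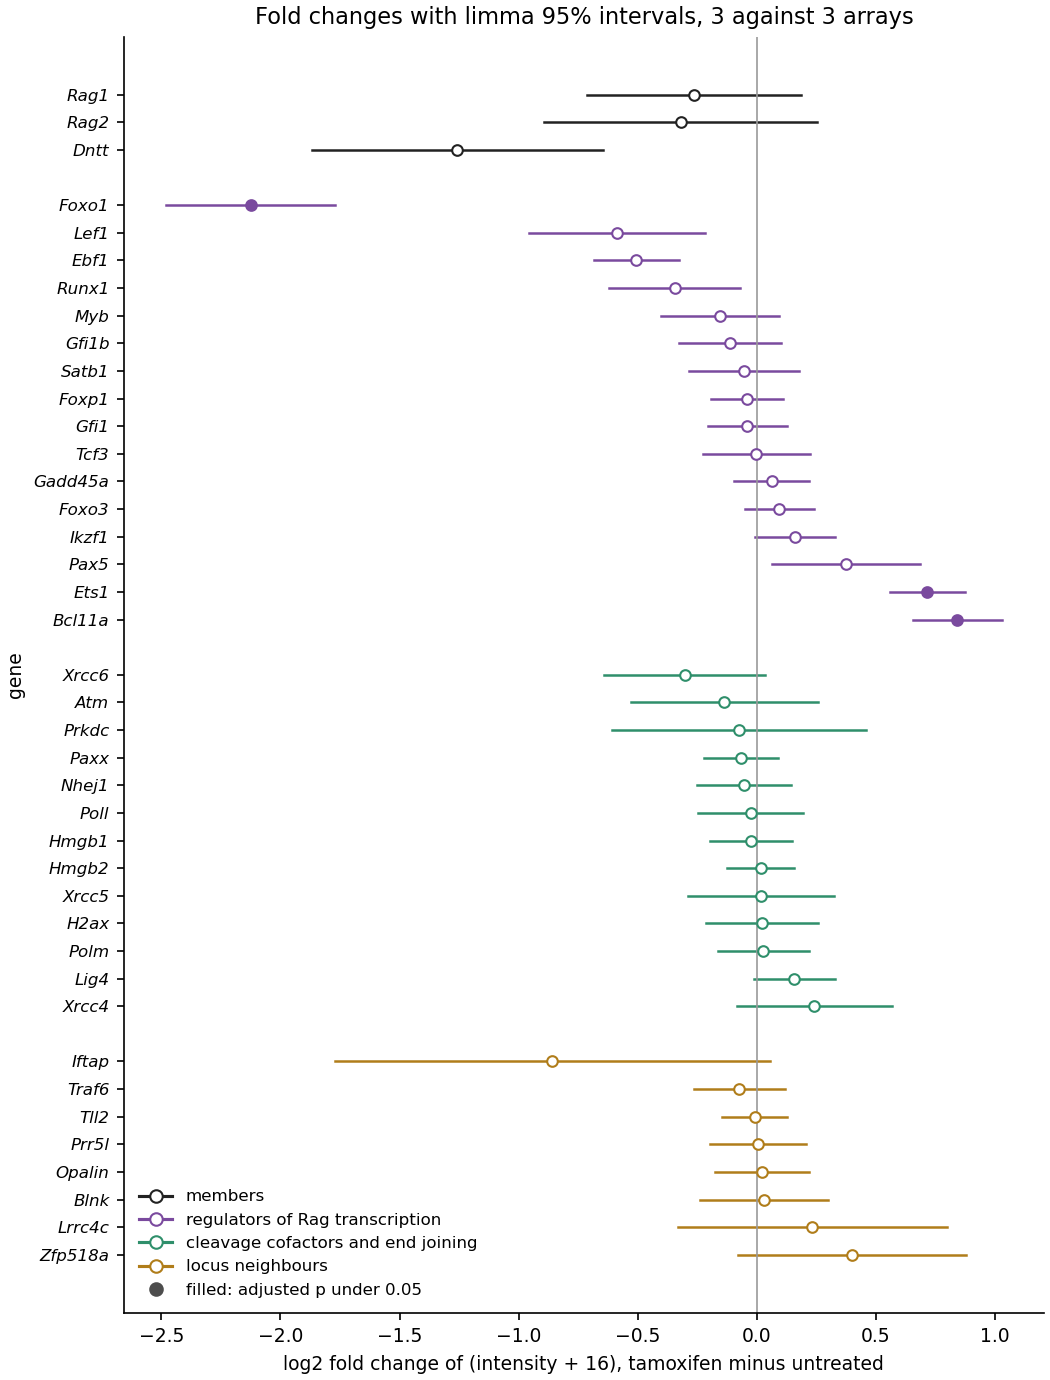
Log2 fold change of (intensity + 16), tamoxifen minus untreated, with limma 95% intervals for the 3 genes, the regulators of Rag transcription, the cleavage cofactors and end joining genes, and the locus neighbours; filled points passed an adjusted p of 0.05. Foxo1, Bcl11a and Ets1 are filled, and the interval of Dntt runs from -1.87 to -0.65.

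Likeness of profile was measured by Pearson's r over the 6 arrays on normalised log2 values, against 10119 genes with a mean intensity at or above the median. With so many genes and 6 arrays, values near 1 arise for some genes in any case, and all points share the same arrays. Most like Rag1 were Nudcd3, a co-chaperone (r = 0.998), the RNA helicase Ddx39a (0.992) and Timm50, of mitochondrial protein import (0.992), with log2 fold changes of -0.12 to -0.26. Most like Rag2 were Blcap (0.987), Adck5 (0.986) and Iqck (0.983). For Dntt they were Gimap9, a lymphocyte GTPase (0.990), Fabp5, a fatty acid binding protein (0.985), and Exosc7, an RNA exosome subunit (0.984). Fabp5 had intensities of 578 in tamoxifen and 875 in untreated samples on average, and a log2 fold change of -0.59 with a limma adjusted p = 0.483. Between the members, r was 0.893 for Rag1 and Rag2, 0.825 for Dntt and Rag1, and 0.798 for Dntt and Rag2. With Foxo1 it was 0.935 for Dntt, 0.593 for Rag1 and 0.572 for Rag2, a description in which the 2 treatment groups and untreated sample 1 weigh heavily.

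**Figure D5:**
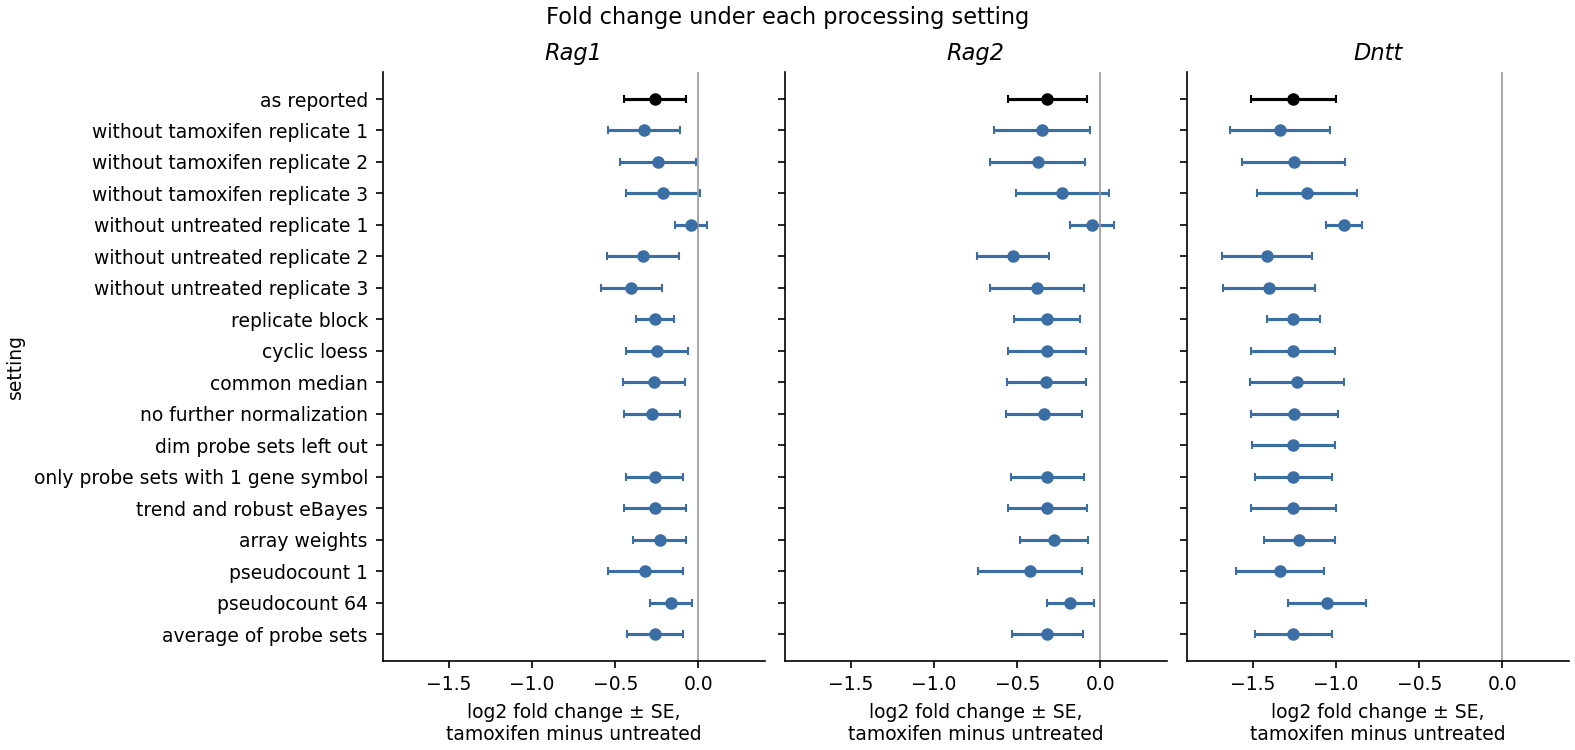
Log2 fold change of Rag1, Rag2 and Dntt (tamoxifen minus untreated, bars 1 SE) as reported and under each other setting; Rag1 and Rag2 have no value where dim probe sets were left out. Without untreated replicate 1 both Rag values are -0.05, while Dntt lies between -1.41 and -0.95 under every setting.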

How the data were processed

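The authors deposited 1 linear intensity per probe set and array. Per the labels' protocols, 200 ng of TRIZOL-extracted, column-purified RNA was made into biotinylated cRNA with a NuGen kit. The sources used here do not state how background, summarisation and normalisation were handled, nor any batch. Groups and replicate numbers come from the titles.

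Intensities were converted to log2(value + 16), quantile normalised and tested two-sided with limma 3.58.1 (lmFit, eBayes; R 4.3.3). P-values were adjusted by Benjamini-Hochberg across the 34760 probe sets, at a threshold of 0.05. The platform table pairs 21640 probe sets with 1 symbol, 1321 with several and 11799 with none. The brightest probe set stood for a gene, and old symbols were updated through a RefSeq table of GRCm38.p6. The limma fit was tested on simulated normalised log2 values, with the same variance in both groups. That test did not cover the log2 conversion or the quantile normalisation. Figures were drawn with matplotlib 3.10.9.

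The members, lists, motifs and receptor background were chosen with earlier results of these data known. Genes named are the members, Foxo1, list members past the threshold (otherwise the 2 highest and 2 lowest), the 2 nearest measured genes on each side of a locus and the 3 most alike genes per member. Some other genes are named to show what lies behind a count, or after their values were seen. Same-numbered samples had correlations of deviations of 0.256, 0.0547 and 0.302, against -0.420 to 0.248 for samples with different numbers. The labels do not say whether same-numbered samples share a culture or day, and this was not tested. The main fit therefore took no pairs, and pairs by number are not excluded. Alternatives were a replicate block, each array left out, 3 other normalizations, 2 filters, a variance trend, array weights, 2 pseudocounts, averaged probe sets and another background level.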

Additional observations from a re-analysis of the deposited data

How the results depend on the processing

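Rag1 and Rag2 kept a negative sign without passing the test under each of 16 alternatives, and so did Dntt under 17. With 1 array left out, their log2 fold changes ran from -0.40 to -0.05, from -0.52 to -0.05 and from -1.41 to -0.95. Over all alternatives the limma adjusted p of Dntt ran from 0.0901, with probe sets of a gene averaged, to 0.932. Rag1 and Rag2 are not tested where dim probe sets are left out. With the replicate number as a block, Dntt kept -1.26 (limma adjusted p = 0.190), Rag1 -0.26 and Rag2 -0.32, and Foxo1 -2.13 with an adjusted p of 0.0936. Foxo1 also missed the threshold with arrays scaled to a common median (-2.12) and without any 1 array other than untreated 1 (range with 1 array left out -2.24 to -1.98). The difference between the Dntt and Rag1 fold changes ran from -1.02 to -0.89.

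The count of 20 probe sets moved under the following choices, and the cause was not tested. It was 0 under the block (2525 at an unadjusted p under 0.05) and 0 to 6 with 1 array left out, where at least 1363 had an unadjusted p under 0.05. It was 3 with a common median, 12 without further normalization, 12 with a variance trend, 11 with a pseudocount of 1 and 39 with array weights. Where fewer features were tested it was 46 without dim probe sets, 65 with 1-symbol probe sets and 73 with averaged probe sets.

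Against the lower quartile of each array, in place of the receptor median, the mean level was 1.17 (tamoxifen) and 1.52 (untreated) for Rag1, 0.705 and 1.02 for Rag2, and 3.20 and 8.51 for Dntt. Against the receptor median it was 2.25 (tamoxifen) and 2.91 (untreated) for Rag1, 1.36 and 1.96 for Rag2, and 6.20 and 16.3 for Dntt. Signal over background thus limits what can be said of the Rag genes.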

Other observations

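An excess of untreated sample 1 over untreated samples 2 and 3 at least as large as that of Dntt was found in 37 probe sets, 14 of them with 1 gene symbol. Of these 14 genes, 8 were also higher in tamoxifen sample 1 than in the mean of tamoxifen samples 2 and 3, by 0.5 or more on the log2 scale. Dntt (0.24) and Iftap (0.15) were not, and neither were Rag1 (0.20) and Rag2 (0.10).

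The 8 genes include 3 selenoprotein genes, chosen for mention after their values were seen. Gpx1, a glutathione peroxidase, had 1716, 503 and 565 in tamoxifen samples 1, 2 and 3, against 1611, 430 and 307 in untreated samples 1, 2 and 3. Selenow had 685, 215 and 234 in tamoxifen samples, against 720, 209 and 170 in untreated samples. Selenoh had 1078, 446 and 400.0 in tamoxifen samples, against 1263, 452 and 326 in untreated samples. Mt2, a metal-binding metallothionein, had 769, 353 and 402 in tamoxifen samples, against 700.5, 315 and 239 in untreated samples. In these genes both samples numbered 1 stood above the other 4. In Dntt, Rag1, Rag2 and Iftap untreated sample 1 was the highest. Their excess of tamoxifen sample 1 over the mean of tamoxifen samples 2 and 3 was below the limit of 0.5. For Dntt (161, 144 and 128) and Rag1 (56.3, 52.2 and 49.1), tamoxifen sample 1 was still the highest tamoxifen sample. For Dntt, untreated samples 2 and 3 (297 and 281) also stood above all tamoxifen samples.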
